A study of Mus musculus with 10 samples.

Results

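The mitochondrial respiratory chain and ATP synthase are built from subunits of both genomes of the cell, and their transcripts were compared between lung neutrophils and lung CCR2+ monocytes of tumour-bearing mice. Members were all genes whose symbol begins as the subunit families do (Nduf with a, b, c, s or v and a digit, Sdha to Sdhd, Uqcr, Cox4 to Cox8, Atp5, and the mitochondrially encoded mt-Nd, mt-Co, mt-Cytb and mt-Atp), without the names marked as pseudogenes by -ps. This gave 103 of 29893 quantified genes, 90 encoded in the nucleus and 13 in mitochondrial DNA. The nuclear members comprised 38 genes of complex I, 4 of complex II, 8 of complex III, 20 of complex IV, 17 of complex V and 3 that are not structural subunits (Atp5s, Dmac2 and Ndufa4l2). Of the 103, 4 are annotated as processed pseudogenes (Cox6c2, Ndufa11b, Ndufb4c and Ndufs6b). The study sorted both cell types by flow cytometry from lungs of NOD/scid mice, an immunodeficient strain that accepts human tumours, when the tumours had reached end point. The mice carried HCl-001 (TN1), labelled highly metastatic, or HCl-002 (TN2), labelled low metastatic. The 4 groups were neutrophils and CCR2+ monocytes of TN1 hosts (2 libraries each, tag_191 and tag_482) and of TN2 hosts (3 libraries each, tag_367, tag_706 and tag_1341). All hosts were of this strain, which lacks mature T and B cells, and all carried a tumour, so no tumour-free mouse serves as a baseline, and each arm rests on a single tumour line. The labels do not say that the tags are separate animals, and the p-values measure only the spread between these libraries, which may be technical.

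Complexes I to IV pass electrons from NADH and succinate to oxygen and pump protons across the inner membrane, except for complex II, which passes electrons without pumping. Complex V, the ATP synthase, lets the protons flow back and makes ATP. Complex II is wholly nuclear-encoded, whereas each of the other complexes joins mitochondrially encoded subunits with imported nuclear-encoded ones. Mature neutrophils are known to have few mitochondria and to draw most of their ATP from glycolysis, and monocytes have more. Mitochondrial DNA is transcribed from both strands as long precursors that are cut into single messengers, and of its protein-coding genes only mt-Nd6 lies on the light strand.

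Libraries held 7239218 to 11311370 estimated counts, and their sorts carried the markers of their labels. A list of 10 neutrophil markers summed to 61086 to 86074 CPM (counts scaled to library size with TMM factors) in the neutrophil libraries and to 439 to 1937 CPM in the monocyte libraries. A list of 10 monocyte markers summed to 7521 to 18935 CPM in the monocyte sorts but also to 1590 to 5092 CPM in the neutrophil sorts, with neutrophil library TN2 tag_1341 the highest of its kind and none of the 10 at 0 in any neutrophil library. Some libraries stood apart. Both tag_482 libraries showed the fewest genes with at least 5 counts, 8851 for neutrophils and 9732 for monocytes. Monocyte library TN2 tag_706 carried 1452 CPM of 6 endothelial markers, 954 CPM of 5 fibroblast markers and 269.7 CPM of 8 pericyte and smooth muscle markers, against at most 171, 52.7 and 14.5 CPM in the other monocyte libraries, and none of these markers was at 0 in TN2 tag_706. In the neutrophil libraries the same lists summed to 5.04 to 408, 0.49 to 23.8 and 40.4 to 103.7 CPM. The highest endothelial sum among neutrophils was that of TN1 tag_482.

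Transcripts of both genomes took up a larger share of the monocyte libraries. The 90 nuclear members summed to 5578, 6719, 6750, 6829 and 5815 TPM (the length-corrected share of a library's transcripts) in neutrophil libraries TN1 tag_191, TN1 tag_482, TN2 tag_367, TN2 tag_706 and TN2 tag_1341. In the monocyte libraries of the same order they summed to 21032, 19155, 25402, 21544 and 22959 TPM. The groups did not overlap, and the lowest monocyte library stood 2.80-fold above the highest neutrophil library. The group means were 22018 ± 2331 and 6338 ± 593 TPM (SD, n = 5 each), a ratio of 3.47. On the TMM-scaled CPM the same ratio was 2.08, again without overlap. The 13 mitochondrially encoded members summed to 2830, 30020, 8135, 3031 and 4191 TPM in neutrophils and to 58224, 198803, 53513, 48174 and 49038 TPM in monocytes. In TPM every monocyte library lay above every neutrophil library. In CPM the groups overlapped, since neutrophil library TN1 tag_482 (24278 CPM) lay above monocyte libraries TN2 tag_706 (19469) and TN2 tag_1341 (21783). Library TN1 tag_482 was the highest of each cell type, in TPM 10.6-fold above TN1 tag_191 in neutrophils and 3.41-fold above it in monocytes. Without the tag_482 libraries the mitochondrial means were 52237 ± 4626 and 4547 ± 2466 TPM (SD, n = 4 each), a ratio of 11.5 (6.24 in CPM), and the nuclear ratio was 3.64 (2.04 in CPM). The messages of mitochondrial DNA made up 0.283% to 0.813% of TPM in neutrophils other than TN1 tag_482 (3.002%) and 4.82% to 5.82% in monocytes other than TN1 tag_482 (19.9%). RNA came from sorted pools, so fewer cells with a transcript and less transcript per cell cannot be told apart, and TPM is a share of each library, not an amount per cell. The part of the monocyte markers found in the neutrophil libraries in these differences was not tested.

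**Figure D1:**
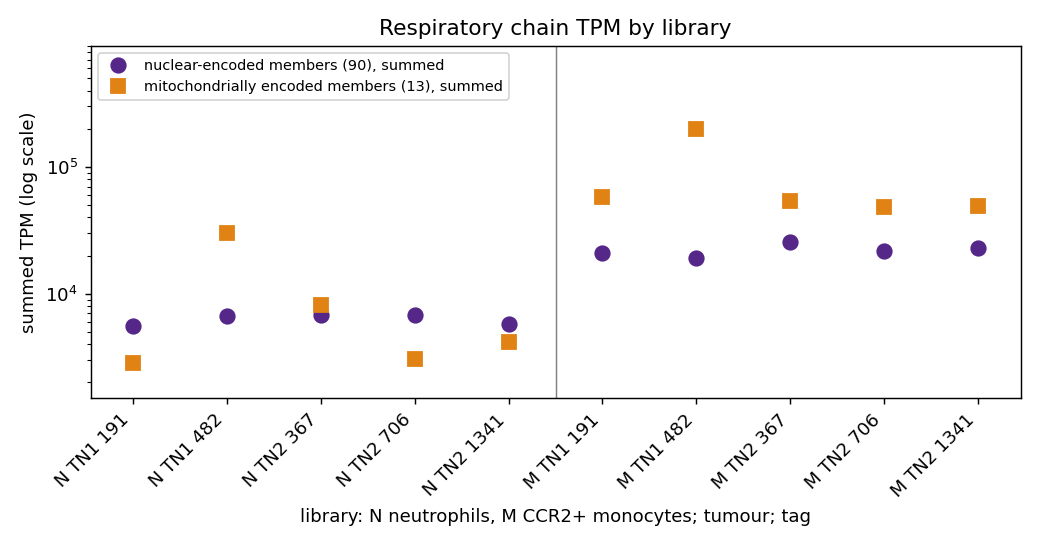
Summed TPM of the 90 nuclear (circles) and the 13 mitochondrially encoded (squares) members in each of the 10 libraries, on a log axis. Nuclear sums lie at 5578 to 6829 TPM in neutrophils and 19155 to 25402 TPM in monocytes, while the mitochondrial sum of TN1 tag_482 stands above the other libraries of its cell type.

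The balance of the genomes also differed between the cell types. Mitochondrial over nuclear TPM was 0.507, 1.21, 0.444 and 0.721 in the neutrophil libraries other than TN1 tag_482, in the order given, and 2.77, 2.11, 2.24 and 2.14 in the monocyte libraries of those tags. In the tag_482 libraries it was 4.47 in neutrophils, above those 4 monocyte libraries, and 10.4 in monocytes. Within complex IV the 3 mitochondrially encoded catalytic subunits summed to 1518 to 3832 TPM in neutrophils other than TN1 tag_482 (13059), beside 1859 to 2298 TPM of their nuclear partners over all 5 libraries. In monocytes the same 3 genes summed to 23367 to 28586 TPM, or 88471 TPM in TN1 tag_482, beside 5480 to 7733 TPM of nuclear partners. Within complex I the 7 mitochondrially encoded subunits were below the nuclear sum in every neutrophil library but TN1 tag_482 (5420 against 2128 TPM) and above it in every monocyte library.

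Gene by gene, 55 of the 79 nuclear members that passed the minimum count were higher in monocytes and 0 were lower (1, Ndufb9, at unadjusted p under 0.05), beside 2070 higher (15.5%) and 1663 lower (12.4%) of all 13384 genes tested (edgeR quasi-likelihood test, Benjamini-Hochberg adjusted p under 0.05, 5 libraries each). Their median log2 difference was 1.51, against 0.46 over all genes tested. Another 11 members did not pass the minimum and 5 passed it only through the monocyte libraries (Ndufs5, Cox6b2, Cox7a1, Atp5s and Dmac2). Among the 74 nuclear members that the neutrophil libraries alone would have passed, 53 were higher and the median was 1.502. In 56 of the 79 every monocyte library lay above every neutrophil library in CPM, beside 16% of all genes. The scale mattered for the size: on log2(TPM + 1) the median of all genes moved to 0.62, and the nuclear members stood 1.61 above it, compared with 1.05 above it in edgeR. On that TPM scale limma called 75 of the 79 higher and 0 lower, beside 33.9% of all genes higher and 8.95% lower, and DESeq2 on the counts called 63 higher and 0 lower, beside 23.4% and 16.8%.

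**Figure D2:**
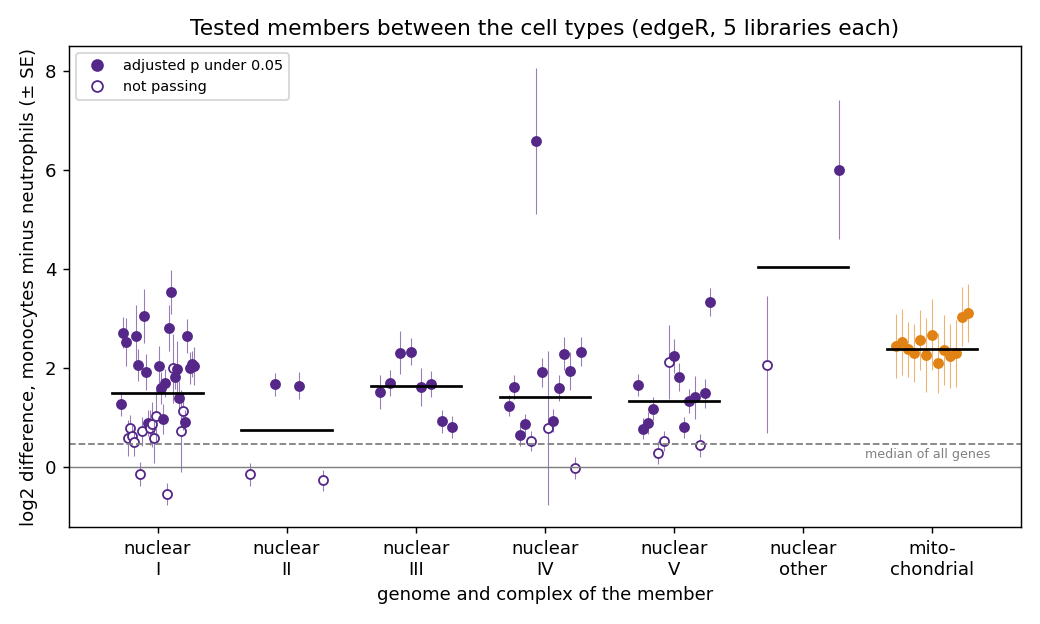
Log2 difference (monocytes minus neutrophils, ± SE) of each of the 92 tested members, by genome and complex; filled points passed the adjusted p, black bars are medians and the dashed line is the median of all genes, 0.46. The members of complex III and of mitochondrial DNA all passed, and the 5 points below 0 lie in complexes I, II and IV, all of them above 0 on log2(TPM + 1). Included are Ndufs5, Cox6b2, Cox7a1, Atp5s and Dmac2, which passed the minimum count only through the monocyte libraries.

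In complex I, the NADH dehydrogenase, 22 of 36 tested nuclear members were higher, with a median of 1.496. Ndufs5, counted among the 36 and among the accessory subunits below, passed the minimum count only through the monocyte libraries. The 7 core subunits, which carry the flavin and iron-sulphur clusters, had a median of 1.99, with 6 higher. The 29 tested accessory subunits had a median of 1.13, with 16 higher. Ndufa10, an accessory subunit of the matrix side (chromosome 1, 92439010 to 92473860), had the smallest p of the complex. Its neutrophil libraries were at 10.6, 11.3, 9.50, 10.5 and 16.3 CPM and its monocyte libraries at 91.5, 67.5, 80.8, 52.3 and 80.4 CPM, in the order TN1 tag_191, TN1 tag_482, TN2 tag_367, TN2 tag_706 and TN2 tag_1341. The groups were far apart (log2 difference 2.71 ± 0.31 SE, edgeR adjusted p = 0.000308). Ndufs8, a core subunit that binds iron-sulphur clusters, was at 9.98, 15.9, 9.63, 13.4 and 26.1 CPM in neutrophils and at 85.9, 101, 95.5, 84.1 and 85.5 CPM in monocytes (2.64 ± 0.35, adjusted p = 0.000542). It is named because its promoter stretch, given below, was picked by p. Ndufc2, a membrane-arm accessory subunit, had the largest log2 difference of the complex, 3.53 ± 0.44 (3.61 ± 1.29 CPM in neutrophils and 40.1 ± 10.4 CPM in monocytes, SD, n = 5 each). It was chosen after its values were seen.

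Not all of complex I passed. Ndufa3, a small membrane-arm subunit with the highest mean TPM of the nuclear complex I members, was at 33.0, 66.6, 35.1, 48.5 and 37.8 CPM in neutrophils and at 60.2, 79.3, 59.9, 45.6 and 70.5 CPM in monocytes. These ranges overlapped and the gene did not pass (0.51 ± 0.29, edgeR adjusted p = 0.216), although on the TPM scale limma called it higher (1.23 ± 0.22, adjusted p = 0.00129). Ndufb9 (114.6 ± 25.9 CPM in neutrophils, 79.2 ± 6.15 in monocytes) and Ndufa7 (61.9 ± 11.9 and 53.4 ± 8.31), chosen after their values were seen, had differences of -0.55 ± 0.23 and -0.14 ± 0.23, did not pass, and were positive on log2(TPM + 1). Ndufs6, an accessory subunit of the matrix arm, was just outside the threshold (1.13 ± 0.39, adjusted p = 0.0533).

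Complex II, succinate dehydrogenase, split into pairs. Sdhb, the iron-sulphur subunit (chromosome 4, 140961203 to 140979193), was at 54.9, 55.2, 64.7, 76.4 and 104 CPM in neutrophils and at 215, 252, 239.8, 146 and 200.1 CPM in monocytes. The lowest monocyte library was above the highest neutrophil library, and the gene was higher in monocytes (1.67 ± 0.23, edgeR adjusted p = 0.000751). Sdhc, a membrane anchor that helps bind the haem, behaved in the same direction, from 22.3 ± 2.71 to 68.1 ± 13.03 CPM (1.64 ± 0.27, adjusted p = 0.00174). Sdha, the flavoprotein that oxidises succinate (chromosome 13, 74322254 to 74350280), was at 202, 303, 133, 224 and 123 CPM in neutrophils and at 170, 208, 182, 161 and 176 CPM in monocytes. Here the monocyte range lay inside the neutrophil range (-0.15 ± 0.24, adjusted p = 0.666). Sdhd, the other membrane anchor (chromosome 9, 50596357 to 50603812), was at 169, 148, 160.03, 173 and 189 CPM in neutrophils and at 119, 202, 133, 103 and 118 CPM in monocytes, again with overlap, although 4 of the 5 monocyte libraries lay below every neutrophil library (-0.27 ± 0.21, adjusted p = 0.373). The signs of Sdha and Sdhd depended on the scale: on log2(TPM + 1) limma gave 0.96 ± 0.26 for Sdha, which passed (adjusted p = 0.0128), and 0.46 ± 0.18 for Sdhd, which did not (0.0592). On that scale Sdhb and Sdhc stood at 2.41 ± 0.18 and 2.38 ± 0.27, so both scales place them above Sdha and Sdhd. The difference between subunits was not tested.

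**Figure D3:**
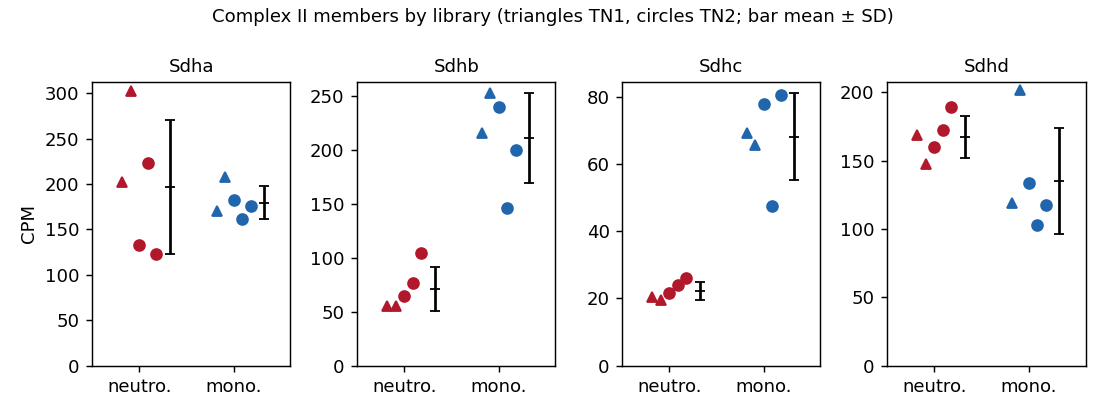
CPM of the 4 complex II genes in each library (red neutrophils, blue monocytes, triangles TN1, circles TN2), with the mean and SD over 5 libraries. Sdhb and Sdhc do not overlap between the cell types, whereas Sdha and Sdhd do.

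In complex III, ubiquinol-cytochrome c reductase, all 8 nuclear members were higher in monocytes, with log2 differences of 0.80 to 2.33. Uqcrc1, a core protein of the matrix side (chromosome 9, 108936633 to 108949623), was at 49.9, 75.9, 66.6, 63.2 and 99.2 CPM in neutrophils and at 306, 505, 337, 219 and 340.1 CPM in monocytes. The lowest monocyte value, in TN2 tag_706, was far above the highest neutrophil value (2.33 ± 0.27, edgeR adjusted p = 0.000329). Uqcrq, a small accessory subunit with the highest mean TPM of the complex, had the smallest of these differences, from 82.6 ± 14.9 to 142 ± 24.4 CPM (0.80 ± 0.22, adjusted p = 0.0236). Uqcrfs1, the Rieske iron-sulphur protein, went from 43.9 ± 6.49 to 138.5 ± 34.5 CPM (1.67 ± 0.27, adjusted p = 0.00147). It was chosen after its values were seen.

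In complex IV, cytochrome c oxidase, 11 of 14 tested nuclear members were higher, with a median of 1.41. The 14 include Cox6b2 and Cox7a1, which passed the minimum count only through the monocyte libraries. Cox4i1, the widespread form of the regulatory subunit 4 (chromosome 8, 120668222 to 120674207), had the highest mean TPM. It was at 143, 197, 165, 233 and 207 CPM in neutrophils and at 462, 446, 527, 353 and 370.0 CPM in monocytes, without overlap (1.23 ± 0.21, edgeR adjusted p = 0.00233). Ndufa4, long filed under complex I and now known as a complex IV subunit, went from 20.9 ± 7.05 to 100.2 ± 17.99 CPM (2.33 ± 0.30, adjusted p = 0.000512). Cox5a (1.62 ± 0.24) and Cox5b (0.64 ± 0.21, adjusted p = 0.0488), matrix-side subunits, both passed, Cox5b narrowly. Cox8a, a single-helix subunit, overlapped between the cell types, with 212 ± 41.1 CPM for neutrophils against 199 ± 44.8 CPM for monocytes (-0.02 ± 0.22, adjusted p = 0.969), while limma on log2(TPM + 1) gave 0.73 ± 0.22 and called it higher (adjusted p = 0.0193).

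Complex IV and the ATP synthase have subunits with tissue-restricted forms, and these had few counts. Cox8c had no count in any library, and Cox7b2, the testis form of subunit 7b, had at most 2. Cox4i2, the form known from lung and hypoxic cells, had 0 to 8 counts in 9 libraries and 28 in monocyte library TN2 tag_706. Ndufa4l2, a hypoxia-inducible relative of Ndufa4, had 8 counts in neutrophil library TN2 tag_706, 93 in monocyte library TN2 tag_706 and 0 in the other 8. The muscle forms Cox6a2 and Cox8b were also highest in monocyte library TN2 tag_706, with 8 and 13 counts. That library held the most pericyte, smooth muscle, endothelial and fibroblast markers (values above), and their part in these counts was not tested. Cox6b2, a form of subunit 6b described in testis, was the restricted form with the most counts: 0, 0, 0, 5 and 1 in neutrophils and 40, 55, 97, 152 and 19 in monocytes. It passed the minimum count only through the monocyte libraries, so its test is not given. Its share of Cox6b1 and Cox6b2 TPM together was 0.657% to 5.80% in monocytes and at most 0.384% in neutrophils. Cox6b1 itself, the widespread form, went from 139 ± 16.5 to 199 ± 25.4 CPM and did not pass (0.52 ± 0.19, adjusted p = 0.0693).

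In complex V, 11 of 15 tested nuclear members were higher, with a median of 1.34. Atp5o, the stalk subunit that confers oligomycin sensitivity (chromosome 16, 91925214 to 91931687), had the smallest p of all members. It was at 8.19, 7.15, 14.2, 13.2 and 20.6 CPM in neutrophils and at 109, 126, 122, 80.8 and 114 CPM in monocytes, a separation of 3.33 ± 0.28 (edgeR adjusted p = 8.21e-05). Atp5b, the catalytic beta subunit and the most abundant nuclear member of the complex, differed less, with 450.4, 389, 294, 465 and 548 CPM in neutrophils against 794, 796, 773, 577 and 670 CPM in monocytes. The highest neutrophil and the lowest monocyte library were close, but the groups did not overlap (0.78 ± 0.22, adjusted p = 0.0253). Of the genes for the membrane ring subunit c, which encode the same mature protein, Atp5g3 went from 13.9 ± 4.73 to 64.6 ± 15.9 CPM (2.24 ± 0.35, adjusted p = 0.00139), and Atp5g1 from 1.98 ± 1.04 to 8.55 ± 1.12 CPM without passing (2.12 ± 0.74, adjusted p = 0.0582). Atp5g1 gave 7.67% to 14.2% of Atp5g1 and Atp5g3 TPM in monocytes and 0.361% to 11.9% in neutrophils.

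Promoter sequence was set beside these values because nuclear respiratory genes are known targets of NRF1, the ETS factor GABP and YY1. RefSeq windows (GRCm38.p6, 250 bases before to 50 after each start) matched 67 of the 90 nuclear members by symbol. On either strand, the NRF1 letters (GCGCA, any base, then GCGC) stood in 17 of the 67 windows (25.4%) and in 4.68% of the windows of all 27025 genes. The ETS letters CCGGAAG stood in 16 (23.9%) against 9.08%, and the YY1 letters AAGATGGCG in 8 (11.9%) against 1.49%. At least one of these motifs stood in 35 windows (52.2%) against 13.9%, whereas a GC box (GGGCGG) stood in 25 (37.3%) against 35.6% and a TATA box (TATAAA) in 7 (10.4%) against 14.1%. Matches of different motifs could overlap. The NRF1 letters stood in 10 of 46 members higher in monocytes (21.7%) and in 6 of 18 tested members that did not pass (33.3%). The ETS letters stood in 11 (23.9%) and 5 (27.8%) of these, the YY1 letters in 7 (15.2%) and 1 (5.56%), the GC box in 16 (34.8%) and 7 (38.9%), and the TATA box in 2 (4.35%) and 3 (16.7%). These differences were not tested. A stretch of 200 bases of the window that spans the RefSeq start is shown, 5′ to 3′ along the gene, for 3 of them as examples of both kinds: Atp5g3 and Ndufs8 from the members higher in monocytes and Sdhd from those not. Stretches were picked from those holding few bases of the gene's own exons. Atp5g3 had the smallest p between the cell types of those with an NRF1 match. Ndufs8 had the smallest p of those with an ETS match and no NRF1 match. Capitals mark an NRF1 match in Atp5g3, an ETS match in Ndufs8, and an NRF1, an ETS and a GC box match in that order in Sdhd.
Atp5g3, chr2:73911302-73911501, minus strand: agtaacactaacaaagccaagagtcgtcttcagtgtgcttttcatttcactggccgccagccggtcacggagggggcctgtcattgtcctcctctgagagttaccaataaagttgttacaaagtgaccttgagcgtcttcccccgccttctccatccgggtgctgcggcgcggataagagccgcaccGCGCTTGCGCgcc
Ndufs8, chr19:3912750-3912949, minus strand: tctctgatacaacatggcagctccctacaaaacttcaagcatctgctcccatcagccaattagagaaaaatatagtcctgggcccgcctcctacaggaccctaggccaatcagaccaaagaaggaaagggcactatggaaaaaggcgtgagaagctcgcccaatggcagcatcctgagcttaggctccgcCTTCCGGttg
Sdhd, chr9:50603825-50604024, minus strand: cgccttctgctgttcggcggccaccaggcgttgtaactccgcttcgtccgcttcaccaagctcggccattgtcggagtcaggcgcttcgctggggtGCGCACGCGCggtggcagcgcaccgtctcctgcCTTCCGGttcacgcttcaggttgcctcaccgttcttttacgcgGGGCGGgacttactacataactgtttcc
The Sdhd stretch lies outside the GENCODE coordinates of the gene given above, since the RefSeq start is farther upstream. Exons of neighbouring genes were not looked for in these stretches, so a match need not belong to the gene named. A match is a string of letters and not a measured binding site.

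All 13 mitochondrially encoded members were higher in monocytes (edgeR adjusted p 0.00368 to 0.0468, median 2.37, or 1.91 above the median of all genes). mt-Co1, the catalytic subunit of complex IV (mitochondrial positions 5328 to 6872), was at 981, 6599, 1834, 989 and 1908 CPM in neutrophils and at 9629, 34822, 8534, 6395 and 6681 CPM in monocytes (2.37 ± 0.55, adjusted p = 0.0105). Neutrophil library TN1 tag_482 was above the lowest monocyte library, so the groups overlapped by 1 library. mt-Cytb, the mitochondrially encoded subunit of complex III (14145 to 15288), was at 172, 3593, 606, 252 and 269 CPM in neutrophils and at 2376, 13100.1, 2238, 2027 and 2031 CPM in monocytes, and neutrophil library TN1 tag_482 lay above 4 of the 5 monocyte libraries (2.26 ± 0.74, adjusted p = 0.0468). mt-Atp6, a proton channel subunit of complex V (7927 to 8607) with the highest mean TPM of all members, was at 310, 3975, 886, 423 and 560 CPM in neutrophils and at 4698, 19973, 3452, 2877 and 3243 CPM in monocytes (2.44 ± 0.65, adjusted p = 0.0198). mt-Nd4, a proton-pumping subunit of complex I (10167 to 11544), was at 127, 1472, 337, 146 and 166 CPM in neutrophils and at 1434, 6566, 1022, 863 and 1005 CPM in monocytes (2.24 ± 0.65, adjusted p = 0.0278). In both, neutrophil library TN1 tag_482 reached into the monocyte range while the other 4 stayed below it.

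Only mt-Nd5 and mt-Nd6 kept every monocyte library above every neutrophil library in CPM (2 of 13, near the 16% of all genes). mt-Nd6, the light-strand gene (13552 to 14070), was at 8.57, 71.9, 15.3, 8.46 and 15.4 CPM in neutrophils and at 171, 589, 116, 89.3 and 108 CPM in monocytes (3.12 ± 0.59, edgeR adjusted p = 0.00368). As a share of the TPM of the 13 genes, mt-Nd6 was at 0.602% to 0.859% in neutrophils and at 1.07% to 1.29% in monocytes, and mt-Nd5 at 0.830% to 1.28% and at 1.29% to 1.77%. These were the 2 shares without overlap between the cell types. For mt-Nd5 the gap was narrow, with 1.278% in the highest neutrophil and 1.286% in the lowest monocyte library. The 2 genes overlap in position, since mt-Nd5 ends at 13565 on the other strand. Which strand the reads came from was not tested. The other 11 kept overlapping shares, led by mt-Atp6 (20.3% to 24.0% in neutrophils, 21.1% to 24.7% in monocytes).

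The mitochondrial calls leaned on single libraries. Leaving out monocyte library TN1 tag_482 reduced the 13 calls to 3 (mt-Co1, mt-Nd5 and mt-Nd6) and the median to 1.75, and leaving out neutrophil library TN1 tag_482 kept 13 with a median of 3.88. Without both, 13 passed with a median of 3.08. Leaving out neutrophil library TN2 tag_706, neutrophil library TN2 tag_1341 or monocyte library TN2 tag_367 left 8 calls each, and leaving out monocyte library TN2 tag_1341 left 9. In that order, 1755, 1931, 1342 and 1553 of all genes were then higher, of 13232 to 13324 tested. With all libraries 2070 of 13384 were higher. All 13 mitochondrial members stayed positive throughout. The nuclear calls ranged from 41 to 55 when single libraries were left out and were 43 without both tag_482 libraries, with 0 lower in each.

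**Figure D4:**
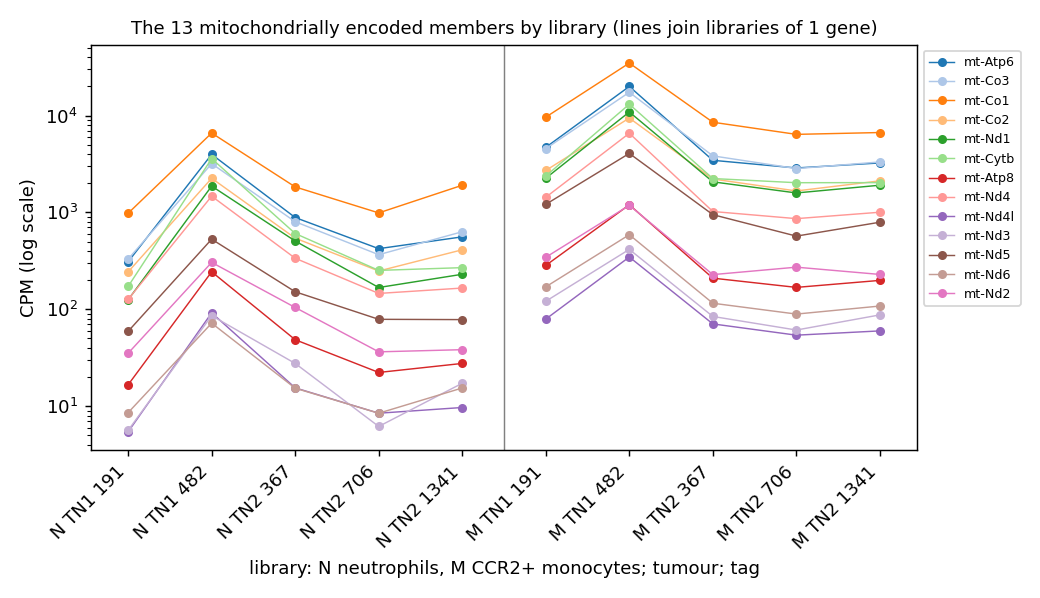
CPM of the 13 mitochondrially encoded genes in each library on a log axis; lines join the values of 1 gene within a cell type and carry no order. TN1 tag_482 is the highest library of each cell type for every gene.

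Between the tags of the TN1 hosts the genomes came apart. Library TN1 tag_482 over TN1 tag_191 gave a median CPM ratio of 11.6 for the 13 mitochondrial genes in neutrophils (6.73 for mt-Co1 to 20.9 for mt-Cytb) and of 3.82 in monocytes (3.35 for mt-Nd5 to 5.51 for mt-Cytb). The same ratio over the nuclear members had a median of 1.29 in neutrophils and 1.11 in monocytes. The tag_482 libraries thus differed from their partners in the mitochondrial share and not to a like degree in the nuclear one. Monocyte library TN1 tag_482 also held the most erythroid markers (190 CPM over 5 genes, at most 27.2 elsewhere) and dendritic cell markers (661 CPM over 6 genes, 77.8 to 177 in the other monocyte libraries), whose part was not tested.

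The second question was whether hosts of the low metastatic tumour differed from hosts of the highly metastatic one. No member passed in neutrophils, in monocytes or in the difference of these effects (edgeR, 0 of 92 tested members each, beside 0% of all genes in each). DESeq2 also called 0 members, beside 0.742% of all genes higher and 0.0856% lower in neutrophils, 0.139% and 0.0408% in monocytes, and 0.0307% and 0.13% in the difference. Likewise limma on log2(TPM + 1) called 0 members, beside 0.00747% of all genes lower in neutrophils and 0% in each other direction and comparison. At unadjusted p under 0.05, 5 nuclear members were higher in TN2 neutrophils (among them Ndufv2, Atp5f1, Atp5o and Dmac2, beside 3.42% of all genes) and 3 mitochondrial members were lower (mt-Nd4l, mt-Cytb and mt-Atp8, beside 1.25%). Dmac2 passed the minimum count only through the monocyte libraries. Among the 74 nuclear members that the neutrophil libraries alone would have passed, 4 were higher at that level. In monocytes 5 mitochondrial members were lower at that level (mt-Nd4, mt-Nd5, mt-Nd6, mt-Co1 and mt-Atp6, beside 0.702%) and 0 members were higher (beside 2.13%). Mitochondrial members tended to move together between libraries, so their counts are not counts of separate observations. In the difference of the effects 3 nuclear members were lower (among them Ndufv2 and Atp5o, beside 2.13%) and 0 higher (beside 1.4%). A p that misses the threshold does not show that the hosts were alike.

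The nuclear member with the smallest p in neutrophils was Ndufv2, a core complex I subunit with an iron-sulphur cluster (chromosome 17, 66078638 to 66101559). It was at 11.3 and 13.7 CPM in TN1 neutrophils and at 38.8, 25.1 and 31.3 CPM in TN2 neutrophils. These 2 groups did not overlap, and the log2 difference, TN2 minus TN1, was 1.34 ± 0.38 (edgeR adjusted p = 0.943). In monocytes it was at 89.8 and 85.8 CPM in TN1 and at 100.6, 70.4 and 70.3 CPM in TN2 (-0.13 ± 0.36), and the difference of the tumour effects was -1.47 ± 0.51 (unadjusted p = 0.0173). Sdha had the smallest p among neutrophil members with a negative nuclear difference (-0.66 ± 0.33, unadjusted p = 0.0752), and its TN1 and TN2 neutrophils overlapped. Among the nuclear members in monocytes, the smallest p of a positive difference was that of Dmac2, an assembly component of the complex I membrane arm (6.12 and 1.44 CPM in TN1, 14.7, 14.3 and 9.11 CPM in TN2, unadjusted p = 0.274), and that of a negative difference was that of Sdhd (-0.44 ± 0.30, unadjusted p = 0.171). The smallest p of a positive difference of the effects was that of Ndufs6 (0.91 ± 0.76, unadjusted p = 0.261). Over the nuclear members the median was 0.16 in neutrophils and -0.13 in monocytes, beside 0.22 over all genes in each, and the monocyte median turned to 0.21 on log2(TPM + 1). In neutrophils 17 of 79 nuclear members had every TN2 library above every TN1 library in CPM (11.8% of all genes) and 2 the reverse (5.97%). In monocytes 2 had TN2 above (12.4%) and 9 below (7.77%).

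With all libraries counted, the mitochondrial members ran lower in TN2 hosts in both cell types. The median of the 13 was -1.64 in neutrophils and -1.79 in monocytes, all 13 negative in each. Without neutrophil library TN1 tag_482, which leaves tag_191 alone in that group, the neutrophil median was 0.87 with all 13 positive. Without neutrophil library TN1 tag_191 instead, it was -2.48 with all 13 negative. The direction in neutrophils thus depended on which TN1 library was kept. Without monocyte library TN1 tag_482 the monocyte median was -0.59, and the 13 stayed negative. In monocytes, library TN1 tag_191 was also above each of the 3 TN2 libraries for every one of the 13 genes in CPM (13 of 13 without overlap, beside 7.77% of all genes lower). In TPM it lay below a TN2 library for 4 of them, mt-Cytb, mt-Nd1, mt-Nd2 and mt-Nd4l. For mt-Co1 these values were 9629 CPM in TN1 tag_191 and 6395 to 8534 CPM in the TN2 libraries. The 13 share precursors and tended to move together between libraries, so 13 of 13 is not 13 separate observations. In the neutrophils TN1 tag_191 had the lowest mitochondrial sum of the 5 libraries. The neutrophil and monocyte values come from separate libraries of the same tags.

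**Figure D5:**
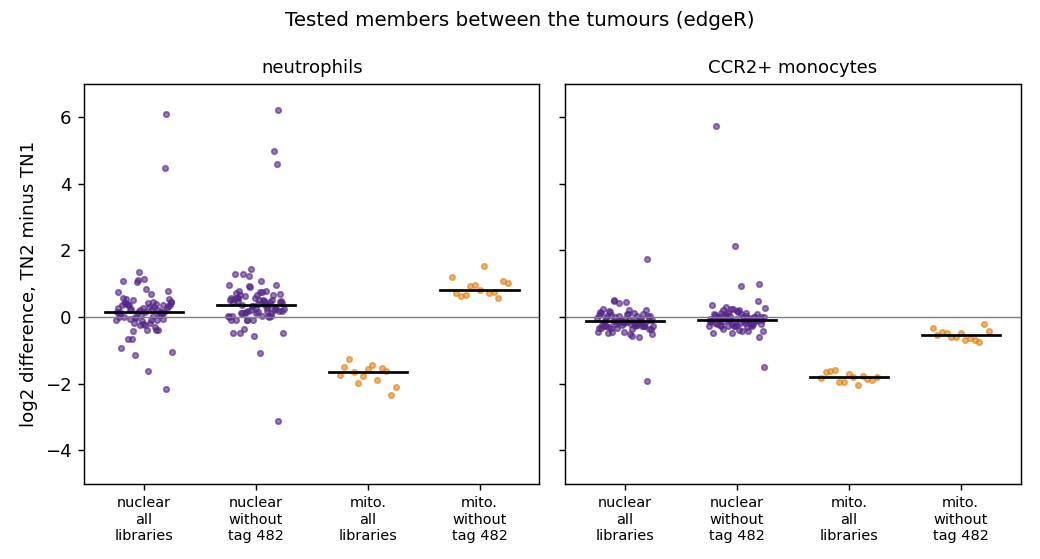
Log2 difference (TN2 minus TN1) of each tested nuclear and mitochondrially encoded member in neutrophils and in monocytes, with all libraries and without both tag_482 libraries; black bars are medians. The mitochondrial median in neutrophils moves from -1.64 to 0.81 and in monocytes from -1.79 to -0.55.

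The authors' deposited table of the same comparisons gave 6 members with unadjusted p under 0.05 in neutrophils, each higher in TN2 (among them Atp5f1, Sdhb, Ndufa1, Atp5o and Ndufv3, beside 1.7% of the genes listed as higher and 0.959% as lower), and Dmac2 alone in monocytes (beside 3.25% of the genes listed as higher and 0.397% as lower). For Atp5o the authors' deposited table listed log2 means of 3.53 in TN1 and 4.43 in TN2 neutrophils, with p = 0.0118. The lowest adjusted p of a member in the authors' deposited table was 1 in each cell type.

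Other genes of mitochondrial energy metabolism were read from lists of general knowledge. Of 13 tricarboxylic acid cycle genes 10 were higher in monocytes and 0 lower, with a median of 1.56. Idh3b, a subunit of the NAD-dependent isocitrate dehydrogenase, had the smallest p of that list (13.1 to 28.6 CPM in neutrophils and 86.7 to 153 CPM in monocytes, a log2 difference of 2.54 ± 0.30). Of 78 mitochondrial ribosomal protein genes 45 were higher and 1 lower, with a median of 2.20, the lower one being Mrpl33 (156 to 343 CPM in neutrophils, 44.9 to 62.3 CPM in monocytes). Of 9 further subunits and electron carriers 6 were higher, among them Cyc1, the cytochrome c1 of complex III (2.48 ± 0.35), Cycs, cytochrome c (1.13 ± 0.25), and Ndufab1, the acyl carrier subunit (2.49 ± 0.37). Of 46 tested genes that assemble the complexes, 6 were higher and 1 lower, with a median of 1.53. Read against all genes (15.5% higher, 12.4% lower), the share of assembly genes called higher was near the background. The lower one was Cox17, the copper chaperone of complex IV (337, 264, 299.7, 339 and 323 CPM in neutrophils and 72.7, 66.5, 45.01, 56.4 and 71.4 CPM in monocytes; -2.29 ± 0.21, edgeR adjusted p = 0.000104). Of 18 genes for expression of mitochondrial DNA 3 were higher and 1 lower (Polg2, the accessory subunit of the mitochondrial DNA polymerase, -1.41 ± 0.47, which did not pass on log2(TPM + 1) in limma). Of 6 tested regulators of mitochondrial biogenesis 0 were higher and 1 was lower, Gabpb1, a subunit of GABP (90.2 to 244 CPM in neutrophils, 21.4 to 27.3 CPM in monocytes, -2.87 ± 0.32). In the tumour comparisons 0 genes of these lists passed in edgeR. At unadjusted p under 0.05 there were 10 higher and 5 lower of 169 in neutrophils, and 0 higher and 2 lower in monocytes, beside 3.42% and 1.25% of all genes in neutrophils and 2.13% and 0.702% in monocytes.

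Some members share sequence with copies elsewhere, and the authors' quantification could split their reads. mt-Nd4l and the nuclear copy Gm10222 are identical over 294 aligned bases and held 7064.5 counts each, so the level given for mt-Nd4l is one share of an even split. Ndufb4 and the member pseudogene Ndufb4c are identical over 390 bases and held 1124 and 1130 counts. Atp5l (6731 counts) had an identical copy over 309 bases, Gm10221, with 4627 counts, and Ndufa12 (1865) a copy at 99.5% identity, Gm15920, with 1422. Atp5g2, a widespread gene for subunit c listed at 0 in each library, has identical copies in Gm10175 (27.6 counts) and Gm10231, so its 0 is not read as absence. Adding the copies of nuclear subunits to their parents left 55 nuclear members higher, and adding those of mitochondrial genes left 13 mitochondrial members higher.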

How the data were processed

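RNA of sorted lung neutrophils and CCR2+ monocytes was amplified by Smart-seq2, which keeps PCR copies in the counts, and sequenced on an Illumina HiSeq, per the labels. Quantification by the authors used kallisto 0.42.3 and GRCm38 transcripts, per the labels. Per the file headers, each deposited table gives an estimated count and a TPM value per transcript. The authors' deposited comparison tables, made with AltAnalyze per the labels, hold a log2 mean per group and p-values with and without adjustment. The test behind them is not given in the sources used here.

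Transcripts were summed to genes with GENCODE release M21 (GRCm38); 81839 of 85276 matched, and the rest held 1.94% to 3.59% of counts. Counts were rounded and fitted in one model of 4 groups (edgeR 4.0.16 in R 4.3.3, filterByExpr with a minimum of 10 counts, TMM, 13384 genes, 6 residual degrees of freedom, biological coefficient of variation 0.887), tested on simulated data first. The SE is the absolute log2 difference over the square root of F. DESeq2 1.42.0 and limma 3.58.1 on log2(TPM + 1) were alternatives. The 13 mitochondrial genes, complex II and isoform sets were named by rule. So were, per complex, the nuclear member with the highest mean TPM and that with the smallest p between the cell types. The members with the smallest p per tumour comparison were also named by rule. Other named genes are marked where they appear or belong to the counts given. Members, lists and rules were chosen with earlier results of these data known. A member counted in the lists is not reported here by name. Copies were found with blastn (at least 95% identity over 50% of the copy). Counts carry no molecular identifiers, and the range of depth covers counting error only.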

Additional observations from a re-analysis of the deposited data

How the results depend on the processing

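The labels do not say whether a tag marks 1 mouse. The correlation of same-tag deviations from the group means was 0.09 in TN1 and -0.06, 0.38 and 0.34 in TN2. It was not above 0.1 for each, so the tags were not used as pairs. Different tags of a tumour gave -0.09 in TN1, a mirror value since each group has 2 libraries, and -0.41 to 0.18 in TN2. These values cannot settle whether the tags pair. The correlations cover all genes tested, whereas for all 13 mitochondrial members tag_482 was the highest library of each cell type. With tag as a replicate block, 51 nuclear and 13 mitochondrial members were higher in monocytes and 0 differed in the tumour effect between the cell types. For the mitochondrial members the block gave a median of 2.77 (edgeR adjusted p 0.000279 to 0.00201), beside 2.37 without it. Their differences of the tumour effects were then all negative (median -0.58). Under DESeq2, other size factors, no count filter, another pseudocount or added copies, the counts of members called between the cell types stayed within 1.5 times. For the other lists limma on log2(TPM + 1) gave 125 higher genes in place of 69, and leaving out single libraries 43 to 69. Calls of nuclear members ranged from 41 to 55 and of mitochondrial members from 3 to 13 when single libraries were left out. Without neutrophil library TN1 tag_191, Ndufs1 was higher in TN2 neutrophils and lower in the difference of the tumour effects, and mt-Atp8 and mt-Nd4l were lower in TN2 neutrophils (counts 0 to 1, 0 to 1 and 0 to 2). In that setting, which leaves 1 TN1 neutrophil library assumed to vary like the other groups, 484 of 15374 genes were higher and 22 lower in neutrophils, and genes were called in the difference as well.

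The log2 difference of Cox8a turned to 0.0039 with no filter, 0.73 with pseudocount 1 and 0.73 with pseudocount 0.1 on TPM, and ranged from -0.22 to 0.0949 with single libraries left out. Sdha turned to 0.96 and 0.97, Sdhd to 0.46 and 0.46, on these TPM scales, and Sdha ranged from -0.28 to 0.0139. Cox7a1 ranged from -1.84 to 3.02. The difference of tumour effects of Ndufs6 turned to -0.0445 without both tag_482 libraries. The nuclear sum, as a log2 ratio of monocytes to neutrophils, was 1.92 by counts. Between the tumours it was 0.0078 by counts in monocytes, and in neutrophils 0.21 without the tag_482 libraries and -0.0595 to 0.21 with single libraries left out. The mitochondrial sum in neutrophils reversed to 0.73 without the tag_482 libraries and ranged from -2.68 to 0.73. The cause was not tested. Depth limits the members under 10 counts, and each tumour comparison rests on 2 TN1 libraries per cell type.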
